A study of Mus musculus with 4 samples.

Results

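The levels of 10 genes of glycolysis and of the response to low oxygen were followed through the cells of the mouse heart in sepsis. The 10, of 32285 genes in the count tables, were Hif1a, Slc2a1, Slc16a3, Hk2, Pfkfb3, Ldha, Pgk1, Pkm, Pdk1 and Ndrg1. They were taken by gene symbol as a named group, chosen with earlier results of these data known though by no threshold on their levels, and each symbol had exactly 1 entry in all 4 libraries. Droplet single-cell RNA sequencing (10x Chromium, 3' chemistry v3, which counts transcripts by unique molecular identifiers, UMIs) was applied to whole-heart cell suspensions, with 1 library per group. The groups were sepsis with low-level tragus stimulation (called sepsis plus stimulation here), sepsis from cecal ligation and puncture, a sham group, and a control group. Tragus stimulation passes a current through the part of the outer ear that is supplied by a branch of the vagus nerve. The treatment label of the first group names the stimulation alone, and its title names sepsis as well. No gene deletion or strain is labelled for any group, and the sources used here give no age, sex, time of sampling or number of animals behind a library.

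Glycolysis splits glucose into pyruvate in the cytosol and yields energy without oxygen. When oxygen is short, the transcription factor HIF-1 is stabilised and binds DNA with its partner ARNT, and genes of glucose uptake, glycolysis and lactate export are among its known targets. Activated macrophages and neutrophils are known to lean on glycolysis, and in macrophages Hif1a transcription also responds to bacterial products. Working heart muscle burns mostly fatty acids.

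The genes fall into 5 roles. The regulator is Hif1a (ENSMUSG00000021109), the oxygen-sensitive subunit of HIF-1, on chromosome 12 from 73901375 to 73947530. The carriers are Slc2a1 (ENSMUSG00000028645, chromosome 4, 119108711 to 119137983), which codes for the glucose transporter GLUT1, and Slc16a3 (ENSMUSG00000025161, chromosome 11, 120948480 to 120960868), which codes for the lactate exporter MCT4. The early steps are Hk2 (ENSMUSG00000000628, chromosome 6, 82725025 to 82774454), a hexokinase that traps glucose in the cell, and Pfkfb3 (ENSMUSG00000026773, chromosome 2, 11471433 to 11554077), whose product makes the activator of phosphofructokinase. The later steps are Pgk1 (ENSMUSG00000062070, chromosome X, 106187100 to 106203699) and Pkm (ENSMUSG00000032294, chromosome 9, 59656368 to 59679375), which yield ATP, and Ldha (ENSMUSG00000063229, chromosome 7, 46841475 to 46855627), which turns pyruvate into lactate. The brake and the reporter are Pdk1 (ENSMUSG00000006494, chromosome 2, 71873224 to 71903858), a kinase that limits the use of pyruvate in mitochondria, and Ndrg1 (ENSMUSG00000005125, chromosome 15, 66929318 to 66969640), a stress gene widely used as a hypoxia marker. All are annotated as protein-coding, with positions from GENCODE vM21 on GRCm38, the assembly also called mm10. Counts per gene cannot separate the M1 and M2 isoforms of Pkm. Near-identical processed copies of Ldha, Pgk1 and Pkm exist in the genome, so the way multiply aligned reads were counted makes their levels uncertain.

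HIF-1 recognises a short core, of which ACGTG and GCGTG are the forms searched here, on both strands. The upstream stretches of 4 of the 7 genes more than 2-fold higher in septic macrophages are shown, picked as examples by no fixed rule. They come from RefSeq promoters on GRCm38.p6, plus strand, with matches in capitals. They are Ldha at chr7:46845554-46845803, Pgk1 at chrX:106186850-106187099, Slc2a1 at chr4:119108495-119108710 and Slc16a3 at chr11:120948817-120949052, none of which overlaps an annotated exon. Those of Pgk1 and Slc2a1 end just before the gene, and those of Ldha and Slc16a3 lie inside it, downstream of the exon of the transcript that starts first and upstream of transcripts that start later.
Ldha: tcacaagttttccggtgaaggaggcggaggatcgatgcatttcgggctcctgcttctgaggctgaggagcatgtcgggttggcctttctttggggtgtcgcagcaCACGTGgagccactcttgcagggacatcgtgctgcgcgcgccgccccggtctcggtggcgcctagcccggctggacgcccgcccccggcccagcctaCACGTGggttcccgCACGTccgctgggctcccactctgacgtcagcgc
Pgk1: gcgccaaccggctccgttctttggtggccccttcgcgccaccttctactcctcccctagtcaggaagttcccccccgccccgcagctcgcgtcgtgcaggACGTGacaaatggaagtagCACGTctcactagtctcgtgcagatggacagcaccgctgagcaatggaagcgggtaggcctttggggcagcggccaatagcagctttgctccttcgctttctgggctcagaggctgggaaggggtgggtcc
Slc2a1: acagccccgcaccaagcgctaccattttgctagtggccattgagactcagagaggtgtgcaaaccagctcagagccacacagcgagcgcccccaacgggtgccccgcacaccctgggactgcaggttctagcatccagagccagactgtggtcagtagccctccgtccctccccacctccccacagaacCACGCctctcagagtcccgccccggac
Slc16a3: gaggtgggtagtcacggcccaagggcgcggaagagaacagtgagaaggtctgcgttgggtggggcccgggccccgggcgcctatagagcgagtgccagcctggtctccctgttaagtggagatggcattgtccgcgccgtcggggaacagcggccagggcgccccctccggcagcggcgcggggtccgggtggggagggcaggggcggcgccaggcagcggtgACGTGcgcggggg
The Ldha stretch held 5 matches, from 2 copies of the palindrome CACGTG, each of which counts once per strand, and 1 further site. Pgk1 held 2 matches to ACGTG, Slc2a1 held 1 to GCGTG and Slc16a3 held 1 to ACGTG. The Slc2a1 and Slc16a3 stretches were cut before the first annotated exon, to 216 and 236 bases. Their full windows of 250 bases held 2 matches each, 1 to each core in Slc2a1 and 2 to ACGTG in Slc16a3. Of the 13 promoter windows of 250 bases listed for 9 of the genes, 11 (84.6%) held either core, against 38.6% of all 32851 windows in the table. ACGTG was in 69.2% of the 13 windows and in 16.6% of all windows, and GCGTG was in 30.8% and 28.2%. Several of the genes are textbook HIF targets, so the larger share is a description, and a match is not a bound site. Of the other genes higher in septic macrophages, Hif1a (3 matches) and Pkm (0 and 1 in its windows) are not shown. No window is listed for Ndrg1.

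The deposited tables held 54611436, 58330756, 58028279 and 59465046 UMIs in sepsis plus stimulation, sepsis, sham and control. After filtering, 8022, 7745, 8281 and 13568 cells were kept, with medians of 5003.5, 5522, 5334 and 2992 UMIs per cell. Of 37446 distinct barcodes kept, 169 occurred in more than 1 library. Each cell was placed in a class when it showed at least 3 markers of that class and a share of its markers at least 1.5 times that of the next class, and a class is named after the markers that chose it, with the ending -like. None of the 10 genes is a marker. Cells without a class were 27.5% in sepsis plus stimulation, 19.1% in sepsis, 13.7% in sham and 14.8% in control. A cluster of 2216 cells with a median of 1016 UMIs made up 23.3% of sepsis plus stimulation, 3.24% of sepsis, 0.495% of sham and 0.391% of control cells. It was picked because it held the most cells without a class in sepsis plus stimulation, and is called the low-UMI cluster below. Other clusters had lower medians, among them cluster 9, mostly macrophage-like, at 866 UMIs, with 379 sham and 867 control cells. Cluster 17, mostly endothelial-like, had a median of 757 UMIs, with 203 cells from sepsis plus stimulation and 438 from sepsis. The macrophage-like class held 3035, 1627, 3067 and 3987 cells, the neutrophil-like class 348, 192, 185 and 129, the endothelial-like class 492, 1713, 1379 and 2898, and the fibroblast-like class 1304, 1972, 1648 and 3151. Within a class, the largest cluster was not the same in septic hearts as in sham and control. For macrophage-like cells it was cluster 5 in sepsis plus stimulation, 8 in sepsis and 2 in sham and control, and for neutrophil-like cells it was cluster 15 in both septic libraries and 26 in sham and control. For endothelial-like cells it was 23, 7 and 0, and for fibroblast-like cells 3 in both septic libraries and 1 in sham and control.

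A level here is the UMIs of a gene summed over the cells of a class and divided by all UMIs of the class, in counts per 1000000 UMIs (CPM). The 4 libraries have no replicates, so there is no test and no p-value, and the range after a ratio is its 95% interval, for counting error alone. A gene is counted as higher or lower when its level differed by at least 2-fold among genes with at least 20 UMIs over both libraries. The level of each gene is compared across cells and libraries, never with that of another gene.

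Hk2 and Slc16a3 were each highest in the same class in all 4 libraries, and the other 8 genes changed class between libraries. Classes with few cells were not ranked, which left 9, 8, 10 and 12 classes in sepsis plus stimulation, sepsis, sham and control. Among the classes ranked in all 4 libraries, by level alone, Ldha was highest in cardiomyocyte-like and Slc2a1 in neutrophil-like cells of every library. For Pdk1 the counting intervals of the highest class and the next overlapped in every library. Hk2 was highest in fibroblast-like cells, at 337, 356, 358 and 431 CPM in sepsis plus stimulation, sepsis, sham and control, and lowest in endothelial-like cells, at 5.66, 8.41, 7.16 and 6.44 CPM. In each library the counting intervals of fibroblast-like cells and the next class were apart. Slc16a3 was highest in neutrophil-like cells of all 4 libraries, at 134, 197, 566 and 558 CPM. The next class reached 43.9, 33.5, 7.37 and 16.3 CPM, and in no library did the counting intervals overlap. Slc2a1 was also highest in neutrophil-like cells of sepsis (52.9 CPM), sham (114 CPM) and control (79.7 CPM), but only in sham was its interval apart from that of the next class. In sepsis plus stimulation the highest Slc2a1 level was in T or NK cell-like cells, at 43.5 CPM, with an interval that overlapped that of B cell-like cells at 40.3 CPM.

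**Figure D1:**
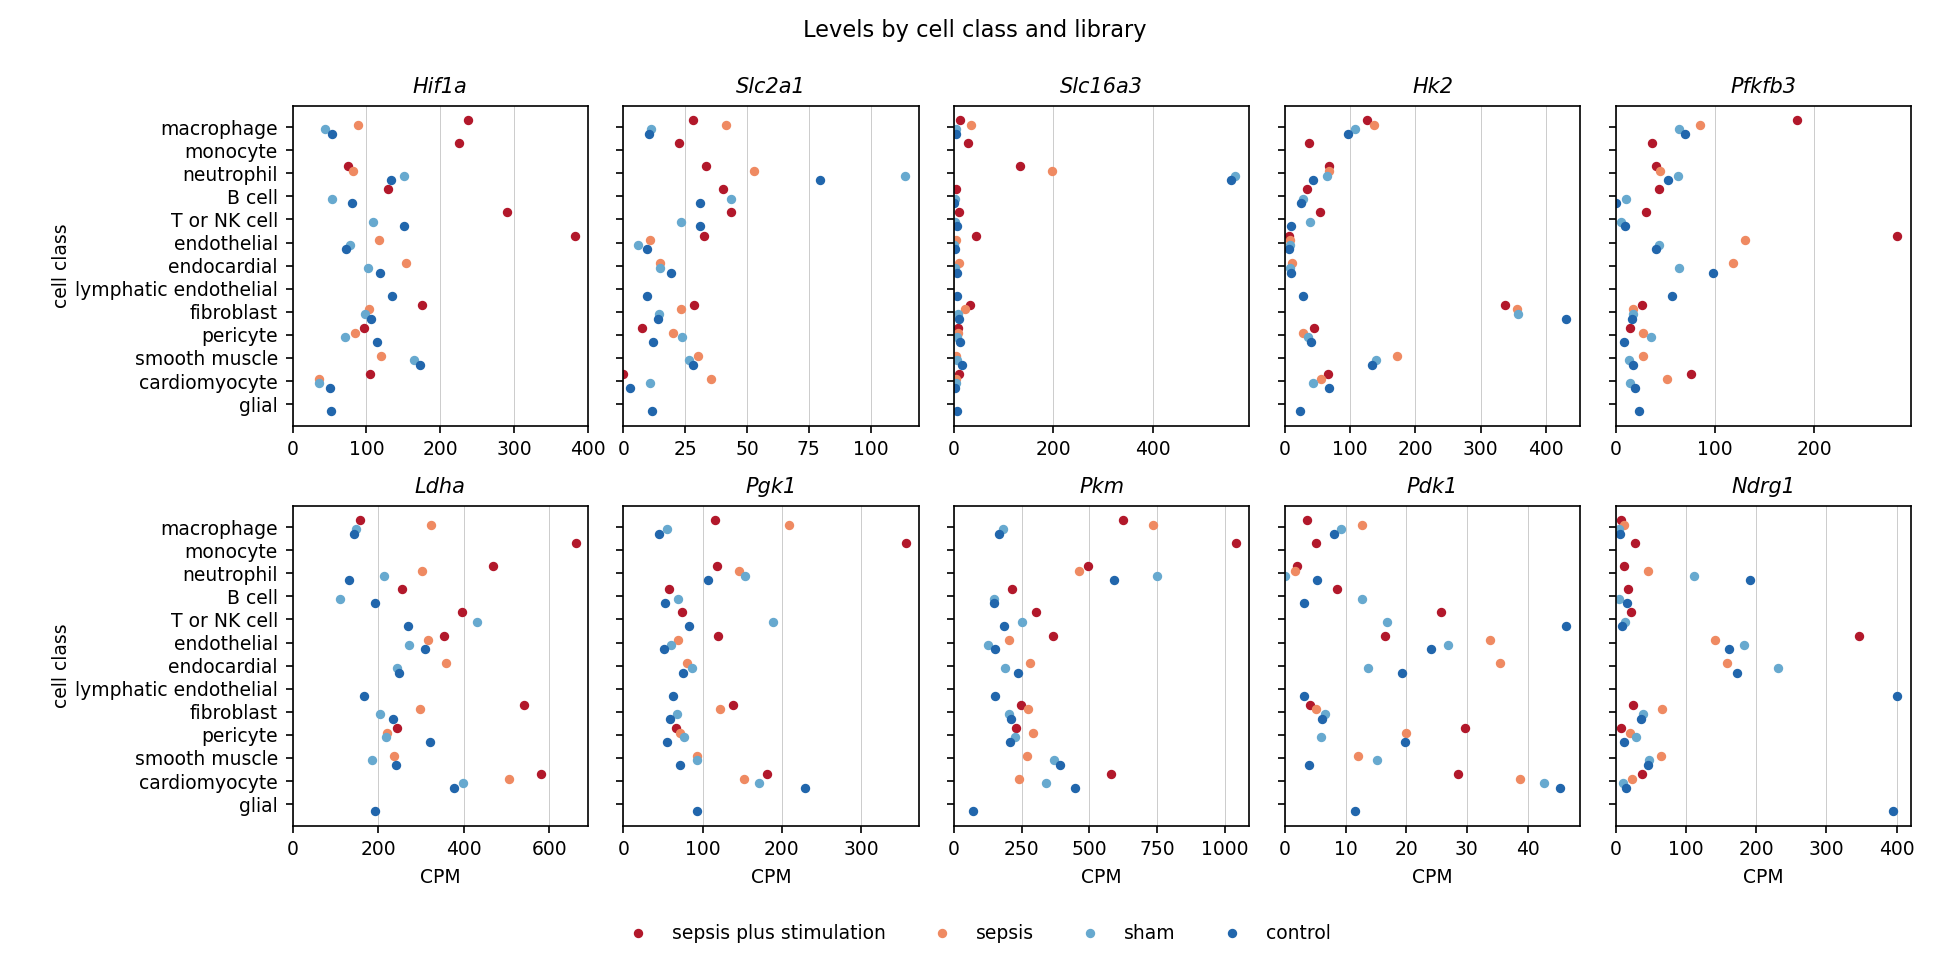
Level in CPM (x axis) of each of the 10 genes by marker class (y axis), for classes with at least 50 cells in a library; each point is 1 library. Hk2 stands out in fibroblast-like cells and Slc16a3 in neutrophil-like cells. Ndrg1 stands out in endothelial, endocardial, lymphatic endothelial and glial classes, and in neutrophil-like cells of sham and control.

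Ndrg1 divided vessel lining from macrophages. It was lowest in macrophage-like cells of sepsis (12.5 CPM), sham (4.82 CPM) and control (5.81 CPM), while endothelial-like cells held 347, 142, 183 and 161 CPM in sepsis plus stimulation, sepsis, sham and control. In control, lymphatic endothelial-like cells at 401 CPM and glial-like cells at 395 CPM were highest, with overlapping intervals. Neutrophil-like cells followed them in control, above endocardial-like and endothelial-like cells, and in sham came directly after those classes. Pfkfb3 was highest in endothelial-like cells of sepsis plus stimulation (283 CPM) and of sepsis (130.0 CPM), where endocardial-like cells at 118 CPM overlapped it. In sham, macrophage-like and endocardial-like cells were level at 63.7 CPM each. Ldha was highest in cardiomyocyte-like cells of sepsis (505 CPM), and of control (377 CPM), where pericyte-like cells at 321 CPM overlapped them, and Pgk1 was highest in those of control (230 CPM). Cardiomyocyte-like cells of sepsis and control had few UMIs, with medians of 829 and 816.5 per cell. Their mitochondrial shares were 8.71% and 7.25%, and endothelial markers summed to 4895 and 4859 CPM in them. The part of these traits in the ranks was not tested. In sepsis plus stimulation, monocyte-like cells held the highest Ldha (662 CPM), Pgk1 (357 CPM) and Pkm (1043 CPM), and for Ldha the interval of cardiomyocyte-like cells at 580 CPM overlapped. That class had 130 cells there and 22, 23 and 26 in sepsis, sham and control, too few for a comparison between libraries. Pdk1 was low in neutrophil-like cells, with 4, 2, 0 and 1 UMIs in sepsis plus stimulation, sepsis, sham and control. In sham, 3 UMIs would have given 6.32 CPM.

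Sepsis against sham asks how cecal ligation and puncture altered these genes in each cell class. Macrophage-like cells showed the broadest difference: 7 of the 10 genes were at least 2-fold higher and none was lower. Across all 12653 genes counted in the class, 5.27% were higher and 18.0% lower. The median log2 ratio of the 10 was 1.25, beside -0.24 for all genes. The genes past the threshold covered the regulator, both carriers, all 3 later steps and Ndrg1, and the early steps and Pdk1 stayed inside it.

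The regulator Hif1a in macrophage-like cells was at 238 CPM in sepsis plus stimulation, 89.2 CPM in sepsis, 44.4 CPM in sham and 53.9 CPM in control. Sepsis was above both sham and control, with a log2 ratio over sham of 1.01 (0.88 to 1.14), which became 0.99 when cells with over 10% mitochondrial UMIs were left out. For the glucose carrier Slc2a1 the 4 levels were 28.2, 41.5, 11.0 and 10.5 CPM, and the ratio was 1.91 (1.68 to 2.15). For the lactate exporter Slc16a3 they were 12.4, 33.5, 4.82 and 4.57 CPM, and its ratio of 2.79 (2.46 to 3.14) was the largest of the 10 in this class. Sham and control were nearly level for both carriers, and sepsis was above them.

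The later steps followed the carriers. Pkm in macrophage-like cells was at 625, 736, 181 and 165 CPM in sepsis plus stimulation, sepsis, sham and control, a sepsis over sham ratio of 2.03 (1.97 to 2.08). Pgk1 was at 115, 209, 55.4 and 44.7 CPM, a ratio of 1.91 (1.81 to 2.02). Ldha was at 158, 323, 148 and 145 CPM, a ratio of 1.12 (1.05 to 1.20). The Ldha ratio was 0.89 when every cell was thinned to 1500 UMIs and 0.95 when cells were weighted equally, both short of 2-fold. Ndrg1, at 7.52, 12.5, 4.82 and 5.81 CPM, had a ratio of 1.37 (0.99 to 1.77). The early steps differed less, with Hk2 at 125, 136, 107 and 97.0 CPM and a ratio of 0.35 (0.25 to 0.44), and Pfkfb3 at 183, 85.2, 63.7 and 69.6 CPM and a ratio of 0.42 (0.30 to 0.54). Pdk1 was at 3.59, 12.8, 9.20 and 8.09 CPM, a ratio of 0.47 (0.15 to 0.79).

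Neutrophil RNA was higher in macrophage-like cells of both septic libraries than in those of sham and control. The 11 neutrophil markers summed to 1292, 1165, 158 and 95.4 CPM in macrophage-like cells of sepsis plus stimulation, sepsis, sham and control, against 215830, 363497, 194916 and 125957 CPM in neutrophil-like cells. Its part in the macrophage ratios was not tested. Neutrophil-like cells of sepsis held 197 CPM of Slc16a3 and 460.4 CPM of Pkm, less in the case of Pkm than the 736 CPM of macrophage-like cells. Macrophage markers were at 13313, 14199, 24095 and 21476 CPM in the macrophage-like class.

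**Figure D2:**
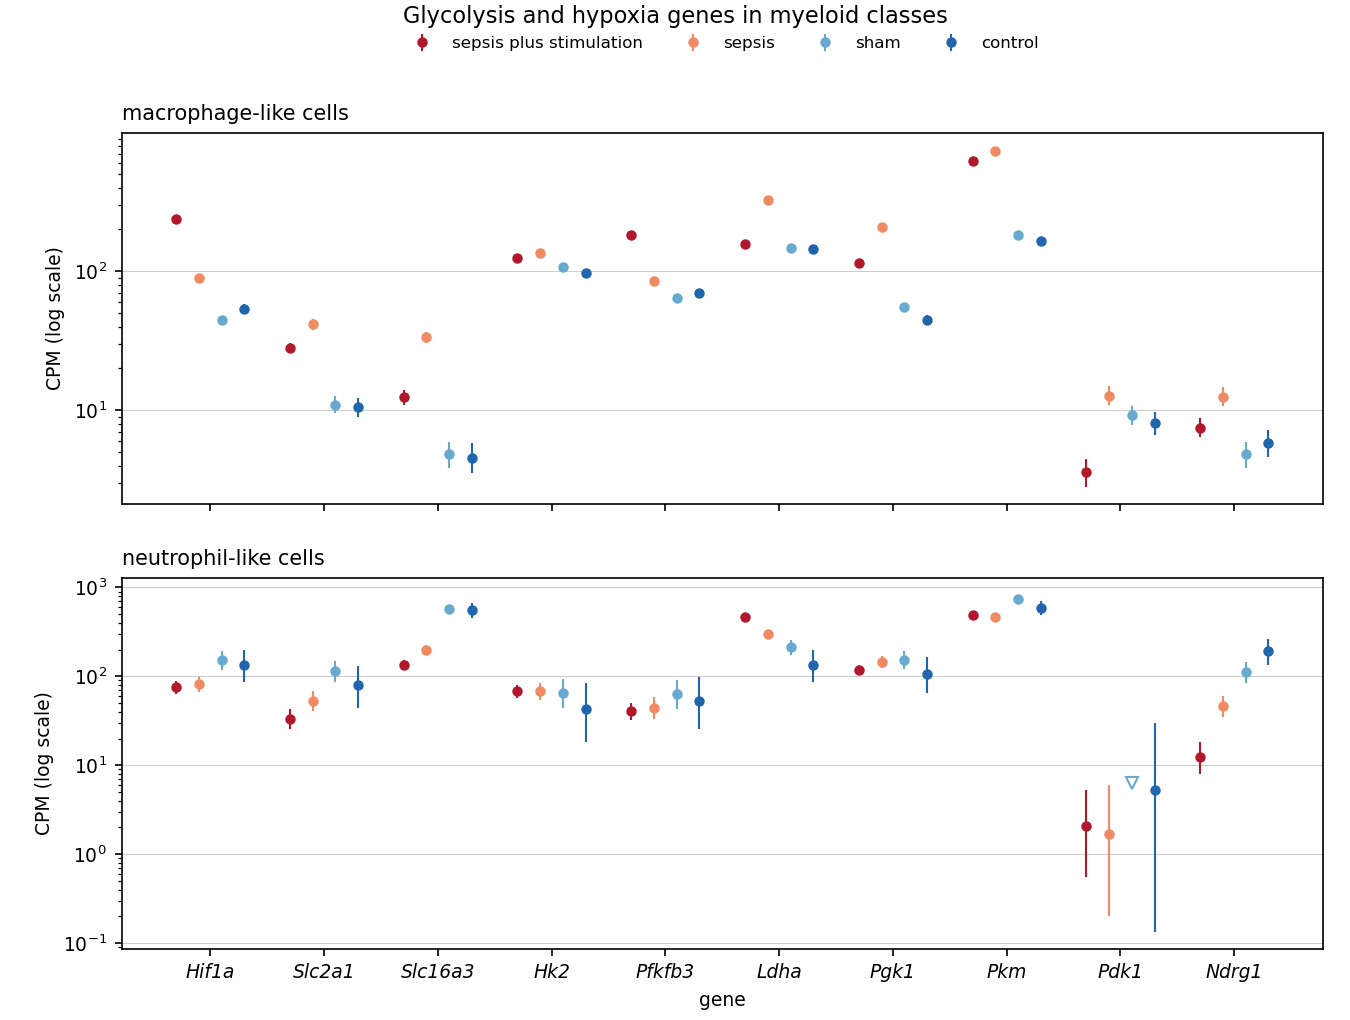
Level in CPM (log axis) of each gene in macrophage-like and neutrophil-like cells of the 4 libraries; bars are 95% counting intervals, and the open triangle is the level that 3 counts would give where none was seen. In macrophage-like cells, sepsis lies above sham by 2-fold or more for 7 genes. In neutrophil-like cells, Slc16a3 in both septic libraries lies below sham and control.

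Neutrophil-like cells went the other way for the carriers. Of 9 genes with enough UMIs, 3 were at least 2-fold lower in sepsis than in sham and none was higher, where 17.7% and 10.9% of 4554 genes were lower and higher. Their median log2 ratio was -0.70, beside -0.20 for all genes. Slc16a3 at 134, 197, 566 and 558 CPM in sepsis plus stimulation, sepsis, sham and control had a sepsis over sham ratio of -1.53 (-1.79 to -1.27), with both septic libraries below the other two. It remained at least 2-fold lower under every setting tried, from -1.57 to -1.12. Slc2a1 was at 33.4, 52.9, 114 and 79.7 CPM, a ratio of -1.11 (-1.65 to -0.55), and Ndrg1 at 12.3, 46.2, 112 and 191 CPM, a ratio of -1.27 (-1.84 to -0.70). These were inside 2-fold with TMM scaling, at -0.77 and -0.93, where the median of all genes in this class moved by 0.34. Both were also inside it with named clusters (-0.91 and -0.55) and without mitochondrial and abundant genes (-0.70 and -0.87), and Slc2a1 with equal weights (-0.87) and, barely, with thinned cells. Ldha was at 469, 302, 213 and 133 CPM, with a ratio of 0.50 (0.19 to 0.84). The depth was unequal, with medians of 4370, 5034.5, 2528 and 1426 UMIs per neutrophil-like cell, and so was the cluster that held most of them.

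In endothelial-like cells, Slc16a3 and Pfkfb3 were at least 2-fold higher in sepsis than in sham and none was lower, where 4.53% and 6.37% of 11813 genes were higher and lower. The median log2 ratio of the 10 was 0.46, beside -0.13 for all genes. Pfkfb3, whose enzyme makes the activator of phosphofructokinase, was at 283, 130.0, 43.9 and 40.2 CPM in sepsis plus stimulation, sepsis, sham and control, a ratio of 1.57 (1.36 to 1.78). Sham and control were level and sepsis was 2.96-fold above sham. Slc16a3 rested on few molecules, 93, 26, 4 and 12 UMIs or 43.9, 3.65, 0.716 and 1.61 CPM, a ratio of 2.21 (0.82 to 4.33). Slc2a1 had a ratio of 0.88 (0.28 to 1.52), which passed 2-fold under 4 other settings, up to 1.12, Pkm of 0.71 (0.58 to 0.84) and Hif1a of 0.60 (0.43 to 0.77). Ndrg1 had a ratio of -0.36 (-0.49 to -0.24).

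In fibroblast-like cells only Slc16a3 passed 2-fold, where 3.88% of 13435 genes were higher and 7.34% lower. It was at 31.6, 22.0, 7.37 and 10.9 CPM in sepsis plus stimulation, sepsis, sham and control, a sepsis over sham ratio of 1.57 (1.25 to 1.92). Pgk1 was at 138, 122, 67.2 and 59.4 CPM, with a ratio of 0.86 (0.75 to 0.98). Ndrg1 had a ratio of 0.75 (0.59 to 0.90), Slc2a1 of 0.71 (0.45 to 0.97) and Ldha of 0.55 (0.48 to 0.61). Hk2, which is highest in this class, was at 356 CPM in sepsis and 358 CPM in sham, a ratio of -0.01 (-0.06 to 0.05). The median of the 10 was 0.49, beside -0.08 for all genes.

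**Figure D3:**
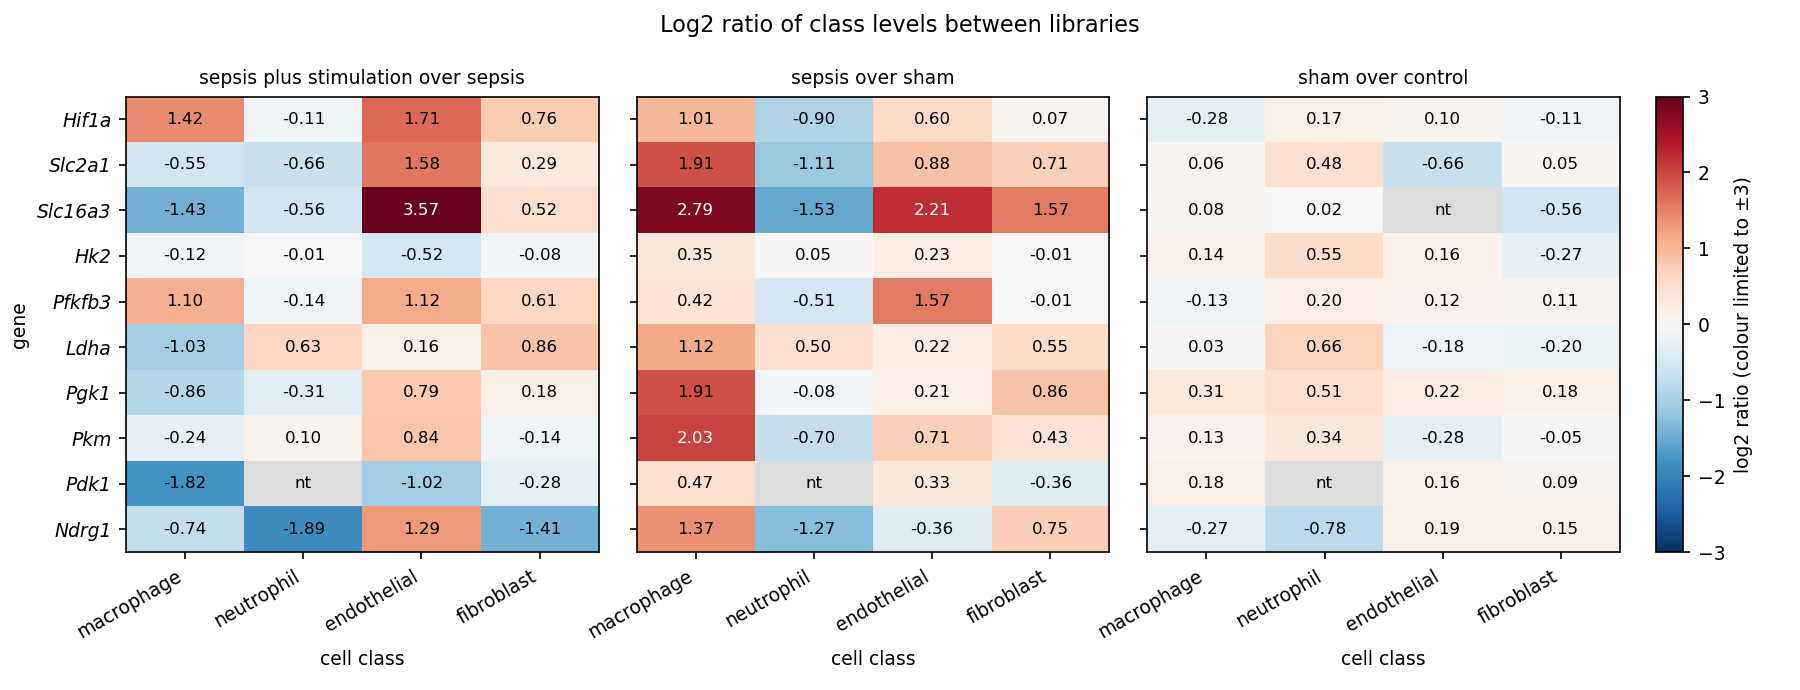
Log2 ratio of class levels for each gene (down the page) in 4 classes (across) and 3 comparisons; red is higher and blue lower in the first-named library, and nt marks genes with under 20 UMIs over both libraries. In the sepsis over sham panel the macrophage column is red for 7 genes past 1, and the sham over control panel holds no value past 1 in either direction.

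Stimulated against unstimulated sepsis addresses the question named in the title of the series, what tragus stimulation does to the septic heart. In macrophage-like cells the genes parted: Hif1a and Pfkfb3 were at least 2-fold higher with stimulation, and Slc16a3, Ldha and Pdk1 at least 2-fold lower. Of 12334 genes, 8.47% were higher and 8.66% lower. The median log2 ratio of the 10 was -0.64, beside 0.03 for all genes. Because sepsis is in both this comparison and the one with sham, a high or low sepsis value enters both ratios, with opposite signs.

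Hif1a, at 238 CPM in stimulated and 89.2 CPM in unstimulated sepsis, had a ratio of 1.42 (1.32 to 1.51), and Pfkfb3, at 183 and 85.2 CPM, one of 1.10 (1.00 to 1.20). Both were above all 3 other libraries. Slc16a3, at 12.4 and 33.5 CPM, had a ratio of -1.43 (-1.66 to -1.21), and lay above sham and control still. Ldha, at 158 and 323 CPM, had a ratio of -1.03 (-1.10 to -0.96), which fell short of 2-fold with doublets kept (-0.99), thinned cells (-0.82) and equal weights (-0.77). Pdk1, at 3.59 and 12.8 CPM, had a ratio of -1.82 (-2.24 to -1.43) and was the only one of the 10 to lie below all 3 other libraries in this class. Pgk1 at -0.86 (-0.94 to -0.78), Ndrg1 at -0.74 (-1.06 to -0.41), Slc2a1 at -0.55 (-0.73 to -0.38) and Pkm at -0.24 (-0.28 to -0.20) were lower by under 2-fold. Ndrg1 passed 2-fold with the stricter marker gate or with named clusters, at up to -1.13.

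Signs of cell state differed between the libraries in this class. The low-UMI cluster held 19.8% of macrophage-like cells in sepsis plus stimulation and 5.59% in sepsis, and the mitochondrial share of UMIs was 2.39% and 4.80%. Malat1, a nuclear RNA, was at 17647 and 16174 CPM. Without the low-UMI cluster the ratios were 1.41 for Hif1a, 1.12 for Pfkfb3, -1.44 for Slc16a3, -1.06 for Ldha and -1.78 for Pdk1. The part of the mitochondrial share was not tested beyond leaving out cells over 10%.

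In endothelial-like cells 5 of the 10 genes were at least 2-fold higher with stimulation and Pdk1 was lower, where 9.34% of 11123 genes were higher and 19.1% lower. The median of the 10 was 0.98, beside -0.13 for all genes. Hif1a was at 383, 117, 77.5 and 72.4 CPM in sepsis plus stimulation, sepsis, sham and control, a ratio of stimulated over unstimulated sepsis of 1.71 (1.57 to 1.85). Slc16a3, on the 93 and 26 UMIs given above, was 11.9-fold higher, a ratio of 3.57 (2.95 to 4.28). Ndrg1, at 347 and 142 CPM, had a ratio of 1.29 (1.15 to 1.43), and Pfkfb3, at 283 and 130.0 CPM, one of 1.12 (0.97 to 1.27). All of these were higher in sepsis plus stimulation than in each other library.

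Slc2a1 in endothelial-like cells was at 32.6, 10.9, 5.91 and 9.39 CPM, a ratio of 1.58 (1.09 to 2.06), which was 0.84 when cells were weighted equally. Pkm, at 364 and 204 CPM, had a ratio of 0.84 (0.71 to 0.96), and Pgk1, at 119 and 69.0 CPM, one of 0.79 (0.57 to 1.01). Ldha barely differed, at 354 and 317 CPM. Pdk1, at 16.5 and 33.8 CPM, had a ratio of -1.02 (-1.59 to -0.52), and was inside 2-fold with TMM scaling, thinned cells or equal weights, at -0.47 at the least. Neutrophil markers summed to 780.2 and 606 CPM in these cells, and endothelial markers to 28356 and 38711 CPM. Neutrophil-like cells of the stimulated library held 134 CPM of Slc16a3 beside 215830 CPM of neutrophil markers. The part of neutrophil RNA in the endothelial values was not tested. The class was also small, with 492 cells against 1713, and 2.64% and 0.0584% of them were in the low-UMI cluster, without which the Slc16a3 ratio was 3.63 and Hk2, at 5.66 and 8.41 CPM, moved to -1.20. Over all settings that Hk2 ratio ran from -1.58 to 0.45, so its direction depends on the setting.

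**Figure D4:**
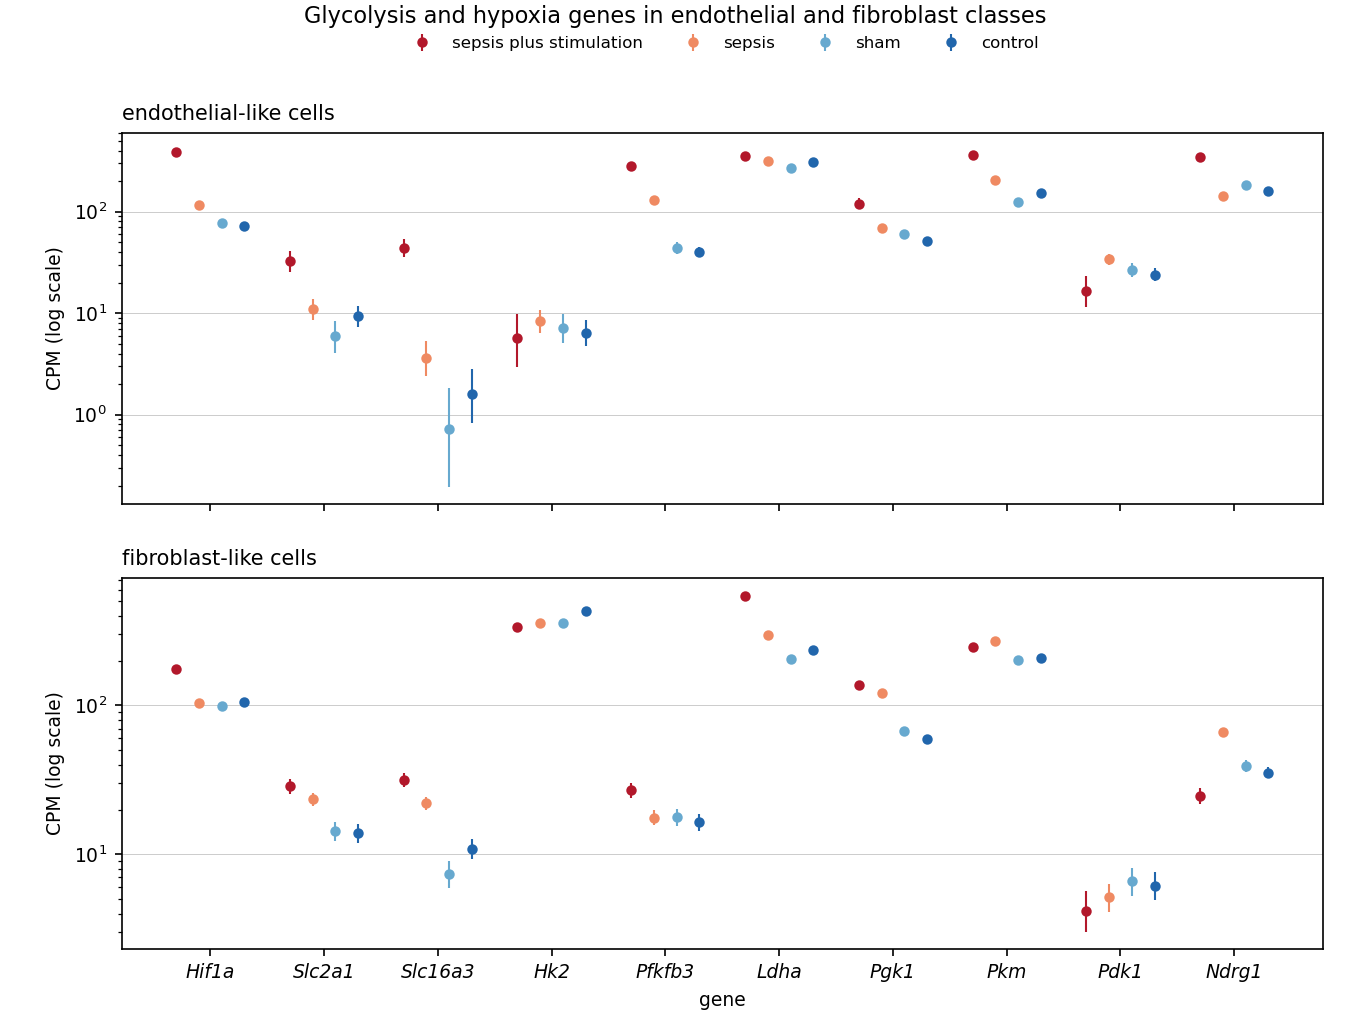
Level in CPM (log axis) of each gene in endothelial-like and fibroblast-like cells of the 4 libraries; bars are 95% counting intervals. In endothelial-like cells the stimulated library is highest for every gene but Hk2 and Pdk1, though for Ldha by little. It is at least 2-fold above sepsis there for Hif1a, Slc2a1, Slc16a3, Pfkfb3 and Ndrg1. In fibroblast-like cells the stimulated library is lowest for Ndrg1.

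In fibroblast-like and neutrophil-like cells Ndrg1 alone passed 2-fold, and it was lower with stimulation. In fibroblast-like cells Ndrg1 was at 24.8, 65.8, 39.2 and 35.4 CPM in sepsis plus stimulation, sepsis, sham and control, a ratio of stimulated over unstimulated sepsis of -1.41 (-1.61 to -1.21). Of 13083 genes there, 4.83% were at least 2-fold higher and 17.0% lower. Ldha was highest in the stimulated library, at 541, 298, 204 and 234 CPM, with a ratio of 0.86 (0.81 to 0.92), and Hif1a followed, at 176, 104, 98.4 and 106 CPM, with one of 0.76 (0.67 to 0.86). The median of the 10 was 0.24, beside -0.22 for all genes. In neutrophil-like cells Ndrg1 had 24 UMIs with stimulation and 55 without, a ratio of -1.89 (-2.66 to -1.19), where 3.30% of 6549 genes were lower and 21.7% higher. Slc2a1 had a ratio of -0.66 (-1.19 to -0.14) there and passed 2-fold under 4 other settings, down to -1.42. Ldha had a ratio of 0.63 (0.46 to 0.81). The median of the 9 genes was -0.14, beside 0.45 for all genes.

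Sham against control holds the operation and any difference between 2 libraries. None of the 10 genes was 2-fold higher or lower in the 4 classes above, with 9 counted in the neutrophil-like and endothelial-like classes. The share of all genes past 2-fold was small too, 1.62% higher and 1.67% lower in macrophage-like, 3.16% and 7.58% in neutrophil-like, 0.959% and 1.24% in endothelial-like and 0.931% and 1.18% in fibroblast-like cells. The ratios farthest from 0 were those of Ndrg1 in neutrophil-like cells, at -0.78 (-1.42 to -0.12), and of Ldha there, at 0.66 (0.04 to 1.37), together with Slc2a1 in endothelial-like cells, at -0.66 (-1.31 to -0.05). Median ratios of the genes were 0.07, 0.34, 0.12 and 0.00 in those classes, in the order macrophage, neutrophil, endothelial and fibroblast, beside 0.03, -0.18, 0.05 and 0.04 for all genes. In neutrophil-like cells 8 of the 9 were higher in sham than in control by some amount, where 37.8% of all genes were. These 2 libraries without sepsis thus also differed there in the count of signs, though some ratios were near 0. Slc16a3 at 0.02 and Hif1a at 0.17 both changed sign with named clusters, where the median of the 9 genes was 0.15.

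Smaller classes gave few UMIs. In sepsis over sham, 1 of 7 genes counted in cardiomyocyte-like cells was at least 2-fold higher, Pfkfb3 on 16 and 4 UMIs with a ratio of 1.74 (0.23 to 3.90), where 7.02% of all genes counted were higher and 9.37% lower. In endocardial-like cells 1 of 8 was higher, Pdk1 on 19 and 11 UMIs with a ratio of 1.34 (0.22 to 2.59), where 5.83% were higher and 7.57% lower. None of 9 in smooth muscle-like cells (4.75% and 5.18% of all genes) and none of 4 in pericyte-like cells (6.16% and 5.47%) passed 2-fold. With stimulation, 2 of 6 were higher in cardiomyocyte-like cells than in unstimulated sepsis, where 14.6% of all genes were higher and 7.37% lower. They were Hif1a, on 11 UMIs in each library with a ratio of 1.56 (0.21 to 2.90), and Pkm, on 61 and 74 UMIs or 580 and 239 CPM with a ratio of 1.28 (0.76 to 1.79). None of 4 passed in pericyte-like cells (8.2% and 10.7%). Pkm apart, the genes past 2-fold here had under 20 UMIs in each library.

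In sham over control, T or NK cell-like cells had Hk2 higher, on 30 and 3 UMIs with a ratio of 1.87 (0.38 to 4.43), and Pgk1 higher, at 189 and 83.4 CPM with a ratio of 1.16 (0.58 to 1.83). Pdk1 was lower there, on 13 and 15 UMIs with a ratio of -1.45 (-2.65 to -0.29), where 7.88% of all genes were higher and 5.11% lower. In smooth muscle-like cells Slc16a3 was lower, on 5 and 29 UMIs with a ratio of -1.25 (-3.09 to 0.02), where 2.45% of all genes were higher and 2.57% lower. No gene passed in B cell-like (2.71% higher and 3.61% lower of all genes), pericyte-like (3.21% and 4.04%), cardiomyocyte-like (3.85% and 4.69%) or endocardial-like cells (4.92% and 2.39%).

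The rest of the pathway was read from 5 further lists. Among 20 other glycolytic enzymes and sugar or lactate carriers counted in macrophage-like cells, 4 were at least 2-fold higher in sepsis than in sham and 1 lower, with a median of 0.06, where 5.27% of all genes were higher and 18.0% lower. The mutase Pgam1, at 263 CPM in sepsis and 84.9 CPM in sham, was highest with a ratio of 1.63 (1.54 to 1.72), and Slc16a1, the lactate carrier MCT1, followed at 1.39. The phosphofructokinase gene Pfkm was lowest at -1.54 (-2.46 to -0.77). The list as a whole thus stood closer to the median of all genes, -0.24, than the 10 genes did. In endothelial-like and fibroblast-like cells, 0 of 18 other glycolytic genes were higher in each, and 1 and 0 were lower, where 4.53% and 3.88% of all genes were higher.

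Other HIF targets were more spread. In macrophage-like cells 7 of 24 counted were higher and 3 lower in sepsis than in sham, with a median of 0.68, against the same 5.27% and 18.0% of all genes. The cytokine gene Mif was at 402 CPM in sepsis and 115 CPM in sham, a ratio of 1.80 (1.73 to 1.88), and the vessel growth factor Vegfa, at 6.81 and 2.08 CPM, had one of 1.70. Bnip3l, a mitophagy receptor, was lower, with a ratio of -1.36 (-1.52 to -1.20), at 33.6 and 86.1 CPM. In endothelial-like cells 8 of 25 were higher and 1 lower, where 4.53% and 6.37% of all genes were, among them Ddit4, an inhibitor of mTOR signalling, at 231.5 and 45.5 CPM (ratio 2.35). In neutrophil-like cells 8 of 15 were lower and 1 higher, with a median of -1.02, where 17.7% of all genes were lower and 10.9% higher, and the mitophagy gene Bnip3 was lowest at -1.64 (-2.87 to -0.45).

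**Figure D5:**
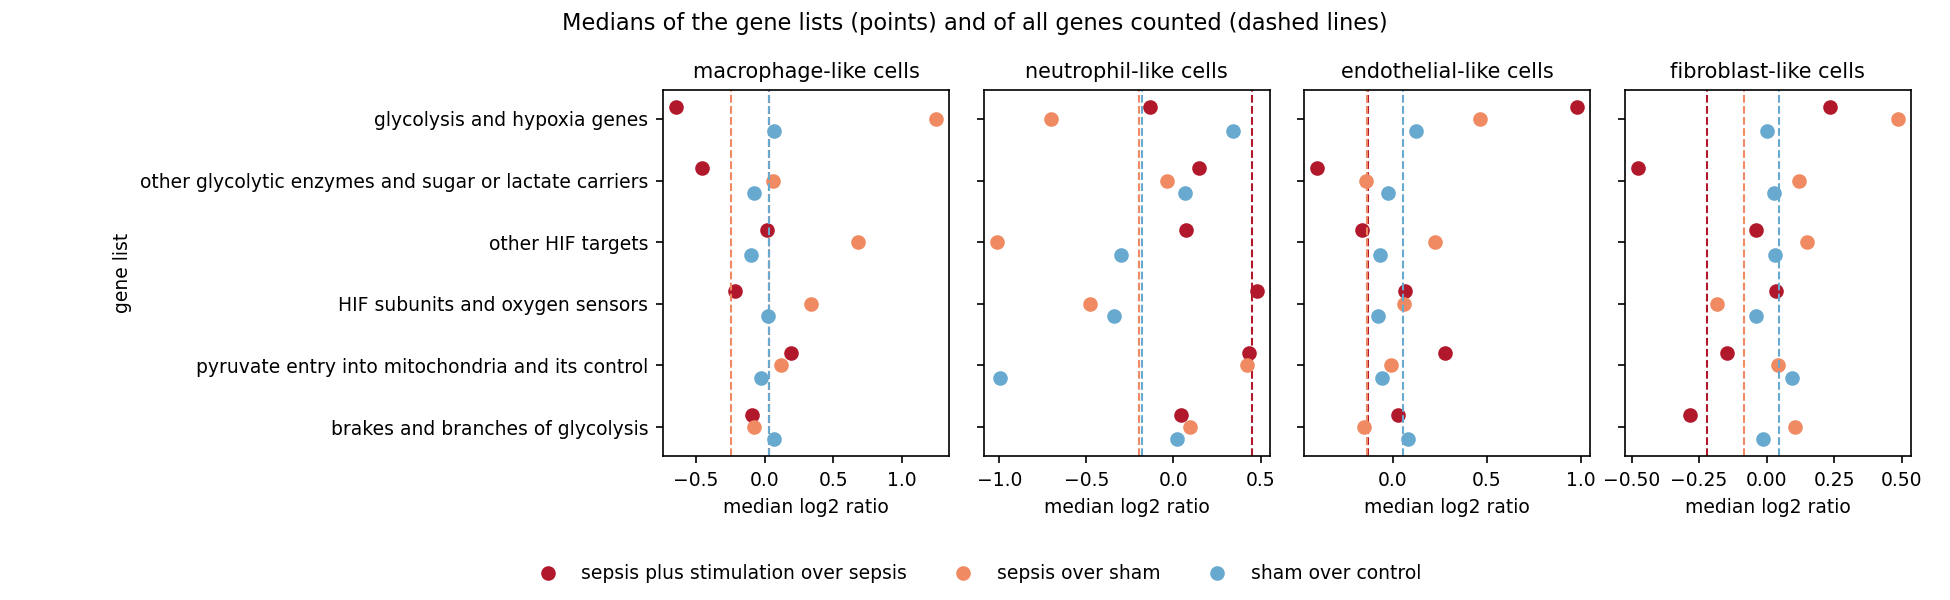
Median log2 ratio (x axis) of the 10 genes and of 5 further pathway lists (y axis) in 4 classes, with points for the 3 comparisons and dashed lines for the median of all genes counted in that class. In macrophage-like cells the 10 genes lie at 1.25 in sepsis over sham and at -0.64 in stimulated over unstimulated sepsis, farther from the dashed lines than any other list.

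Among oxygen sensors and HIF partners in macrophage-like cells, 1 of 11 was at least 2-fold higher in sepsis than in sham, where 5.27% of all genes were, namely Hif3a, a HIF subunit that can restrain the others, on 60 and 2 UMIs, with a ratio of 5.11 (3.51 to 8.50). In neutrophil-like cells the prolyl hydroxylase Egln1, which marks HIF for destruction, was lowest at -2.45 (-3.91 to -1.22), on 6.72 and 37.9 CPM. With stimulation, Egln2, a sister hydroxylase, was higher than in unstimulated sepsis in macrophage-like cells, at 186 and 60.9 CPM with a ratio of 1.61 (1.5 to 1.72), and in fibroblast-like cells, with a ratio of 1.27 (1.12 to 1.42). Egln1 was lower in endothelial-like cells, at 98.6 and 229.5 CPM, a ratio of -1.22 (-1.43 to -1.01).

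Around pyruvate, the kinase Pdk4 was the highest gene of its list in sepsis over sham in 3 classes. In fibroblast-like cells it stood at 39.8 and 7.91 CPM with a ratio of 2.32 (2.03 to 2.64), and its ratio was 1.87 in the macrophage-like and 1.29 in the endothelial-like class. It was the 1 gene of 13, 12 and 13 in that list to pass 2-fold upward in macrophage-like cells, endothelial-like cells and fibroblast-like cells. Among brakes and branches, Arrdc4, which limits glucose uptake, was higher in sepsis than in sham in endothelial-like cells, at 141 and 42.8 CPM with a ratio of 1.71 (1.51 to 1.93), and in macrophage-like cells at 1.17 (0.99 to 1.36). In fibroblast-like cells it was not, at 13.9 and 16.0 CPM with a ratio of -0.21 (-0.48 to 0.07). Arrdc4 was higher with stimulation in all 3 of these classes, with ratios over unstimulated sepsis of 2.36 in fibroblast-like, 1.52 in endothelial-like and 1.06 in macrophage-like cells. In neutrophil-like cells of sepsis it had a ratio of -1.55 (-1.96 to -1.15) over sham.

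With stimulation, other glycolytic genes differed by class. In macrophage-like cells 0 of 19 were higher and 4 lower than in unstimulated sepsis, with a median of -0.46, where 8.47% of all genes were higher and 8.66% lower. In fibroblast-like cells 0 of 18 were higher and 2 lower, with a median of -0.48, where 4.83% and 17.0% of all genes were. In neutrophil-like cells 4 of 13 were higher and 0 lower, with a median of 0.15, where 21.7% and 3.30% were and the median of all genes was 0.45. In macrophage-like cells the liver-type phosphofructokinase gene Pfkl, at 10.6 and 37.5 CPM, was the lowest of the list at -1.82 (-2.06 to -1.59). Pfkl was also lowest in endothelial-like cells, at -1.81 (-2.43 to -1.29), and in fibroblast-like cells, at -1.30 (-1.71 to -0.93). Endothelial-like cells had 3 of 17 higher and 3 lower, where 9.34% and 19.1% of all genes were, with Slc16a1, at 17.5 and 1.68 CPM, highest at 3.34 (2.40 to 4.45). Of other HIF targets in endothelial-like cells, 0 of 25 were higher and 7 lower, against those same shares of all genes, and Mxi1, a MYC antagonist, at 6.61 and 56.9 CPM, was lowest at -3.06 (-3.99 to -2.34). In macrophage-like cells 3 of 25 were higher and 5 lower, where 8.47% and 8.66% of all genes were. Bnip3l was there the highest, at 163 and 33.6 CPM with a ratio of 2.28 (2.13 to 2.43), and P4ha2, a collagen prolyl hydroxylase, was the lowest at -2.45 (-3.18 to -1.82).

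Likeness across cells was measured for Hif1a, Slc2a1 and Ldha by Pearson's r of log2(CPM + 5) over 18 combinations of class and library with at least 200 cells, among 5883 genes with a mean of at least 20 CPM. The combinations share libraries, depth and clusters, so r is a description. Hif1a was most like Bclaf1 (r = 0.89), Safb (0.88) and Rbm27 (0.87), genes of RNA processing and nuclear structure. Slc2a1 was most like Zcchc9 (0.81), the serum amyloid gene Saa3 (0.77) and the transcription factor gene Cebpb (0.75). Ldha had looser company, with Prelid3b (0.68), Nrd1 (0.66) and Ciapin1 (0.64).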

How the data were processed

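The authors deposited 1 matrix of raw UMI counts for each library. Per the file headers, Cell Ranger 5.0.0 wrote it. STAR and the mm10 build are named in the submitters' processing notes. The 4 matrices list 32285 genes each, and no barcode had under 500 UMIs. Gene and barcode names come from the deposited feature and barcode lists.

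Barcodes with at least 500 UMIs, at least 200 genes and at most 20% mitochondrial UMIs were kept. Doublets were scored per library with Scrublet in scanpy 1.11.5, and the top 0.8% per 1000 barcodes were left out. Cells were gated into 14 classes by marker lists, with T and NK cells merged and endocardial and lymphatic cells split from endothelial ones by at least 3 of their markers. The gating rule was settled after the data had been seen. Clusters (2000 variable genes, 30 principal components, 20 neighbours, leidenalg 0.10.2 at resolution 1) served as an alternative and to describe the classes. Counts were summed per class and library and divided by the class total, and levels have exact Poisson intervals. For log2 ratios 0.5 was added to each count, with exact conditional binomial intervals, which cover counting error only. The calculation was tested on simulated counts with known folds. No model was fitted and no p-value computed, since each group has 1 library. edgeR 4.0.16 gave the TMM factors of an alternative.

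The 10 genes and the 5 further lists were chosen with earlier results of these data known. From each further list the 2 highest and 2 lowest ratios per class were named, and not all of them are printed. Aldoa has more than 1 entry under its symbol and was left out. Levels of the 10 genes are printed for all libraries, and comparisons were made in classes with at least 50 cells in both libraries. Alternatives changed 1 choice at a time: the scaling, the gate, named clusters, doublets, the mitochondrial limit, cells thinned to 1500 UMIs, cells weighted equally, the count minimum, the leaving out of mitochondrial genes and the 50 most abundant ones, and the leaving out of a low-UMI cluster.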

Additional observations from a re-analysis of the deposited data

Results flagged for a closer look

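In 8 cases a gene was at least 2-fold higher in one cell class and at least 2-fold lower in another under the same pair of libraries. With 1 library per group the differences between classes were not tested, and each is given as the distance between the 2 log2 ratios.

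For sepsis over sham, Slc16a3 stood at -1.53 in neutrophil-like cells, against 2.79 in the macrophage-like, 2.21 in the endothelial-like and 1.57 in the fibroblast-like class, distances of 4.32, 3.73 and 3.10. Slc2a1 stood at 1.91 in macrophage-like and -1.11 in neutrophil-like cells, a distance of 3.02. Ndrg1 stood at 1.37 and -1.27 in the same classes, a distance of 2.65. The neutrophil-like ratio was inside 2-fold under TMM scaling, with named clusters and without mitochondrial and abundant genes for both Slc2a1 and Ndrg1, and for Slc2a1 with thinned cells and equal weights as well, and past it for Slc16a3 under every setting.

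For stimulated over unstimulated sepsis, Slc16a3 stood at 3.57 in endothelial-like and -1.43 in macrophage-like cells, a distance of 5.0, and both ratios were past 2-fold under every setting tried. Ndrg1 stood at 1.29 in endothelial-like cells, at -1.89 in neutrophil-like cells and at -1.41 in fibroblast-like cells, distances of 3.18 and 2.70.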

How the results depend on the processing

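Of 1120 log2 ratios of single genes recomputed under 10 alternatives, 1015 stayed within the counting interval of the reported value and 105 did not. Among those that stayed are 116 at a minimum of 1 UMI, which could not move. That choice alters only which genes are counted, and leaves each ratio as it was. Thinned cells moved 37, TMM scaling 27, equal weighting of cells 18, named clusters 9, leaving out mitochondrial and the 50 most abundant genes 8, the stricter gate 5, and the limit of 10% mitochondrial UMIs 1. No ratio past 2-fold turned round. Leaving out the low-UMI cluster was chosen after seeing the data and moved none. It left in the other clusters of cells with few UMIs, whose part was not tested. The counts of macrophage-like cells stayed within 1.5 times of those reported under every alternative. In neutrophil-like cells the 3 genes lower in sepsis than in sham became 1 under TMM scaling, named clusters and without mitochondrial and abundant genes. There the 1 gene lower with stimulation became 2 under TMM scaling, equal weighting and without those abundant genes, and 1 gene became higher with thinned cells. In endothelial-like cells the 1 gene lower with stimulation became 0 under TMM scaling and with thinned cells, and 2 under the stricter gate and without the low-UMI cluster. In fibroblast-like cells the 0 genes higher with stimulation became 1 with equal weighting. For sham over control, the 0 higher became 1 in neutrophil-like cells under TMM scaling and with thinned cells, and 1 in endothelial-like cells under the stricter gate and with thinned cells. The 0 lower became 1 in neutrophil-like cells at a minimum of 1 UMI, and 1 in endothelial-like cells with equal weighting and at a minimum of 1 UMI. TMM scaling shifted the median of all genes by 0.19, 0.34 and 0.15 in macrophage-like, neutrophil-like and endothelial-like cells for sepsis over sham, by -0.38 in neutrophil-like and 0.13 in fibroblast-like cells for stimulated over unstimulated sepsis, and by 0.35 in neutrophil-like cells for sham over control. No paired analysis was possible because each group has 1 library. Neutrophil-like values rest on 129 to 348 cells per library.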
